A study of Mus musculus with 12 samples.

Results

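Peroxiredoxin 2 (Prdx2) and glutathione S-transferase alpha 4 (Gsta4) were examined in the kidneys of glyoxylate-treated mice on an epitranscriptomic array. The array carries 50 probes that are each printed as 10 spots and paired with a transcript accession, and 45 of these accessions matched a gene symbol in RefSeq's table of assembly GRCm38.p6. Of those 45, 1 belonged to Prdx2 (probe A_51_P147207, accession NM_011563) and 1 to Gsta4 (probe A_51_P112223, accession NM_010357), so the members were 2 of 60706 probes. They were chosen by name, for the removal of peroxides and lipid aldehydes, and not by a measured value, though earlier results of these data were known.

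The kidneys came from 6 male C57BL/6 mice aged 6 to 8 weeks, 3 of them wild type (WT) and 3 labelled METTL3-cKO (cKO in the following), a conditional knockout of the methyltransferase that writes N6-methyladenosine (m6A) on RNA. Both genotypes had received glyoxylate, an oxalate precursor, into the peritoneum at 100 mg/kg in 200 µl once a day for 7 days. The labels give neither the Cre driver nor the cells in which the gene was deleted, and mice without glyoxylate were not analysed here, so no value below is an effect of glyoxylate. From the RNA of each kidney, an m6A antibody pulled down one fraction (IP, Cy5, the red channel) and left the supernatant (Cy3, the green channel), and both fractions of an animal were read on 1 array. The antibody field of the labels calls the supernatant samples input, while their titles and source names call them Sup, and the latter is followed here.

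Peroxiredoxins are thiol enzymes that reduce hydrogen peroxide and organic peroxides, and thioredoxin restores them. Prdx2 is a cytosolic member and is very abundant in red blood cells. Gsta4 is an alpha-class glutathione transferase with a preference for lipid aldehydes such as hydroxynonenal, which form when peroxides attack membrane lipids. Oxalate crystals are known to raise oxidant production in tubule cells, which is why enzymes of this kind are of interest in the glyoxylate model. m6A marks mRNA and affects its stability and translation. The array gives 1 ratio of IP to supernatant per probe and does not show where on a transcript the mark lies.

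On each of the 6 arrays the 10 spots of both probes exceeded background clearly in red and green, and no spot was saturated. The share of all probes flagged as well above background was 52.2% to 56.2% for IP and 31.7% to 57.0% for supernatant, with the 2 lowest supernatant shares on WT 1 and WT 3. These 2 arrays carry one scan time in their file headers, and WT 2 carries another with the 3 cKO arrays, so scan and genotype nearly coincide. The median spot signal of the 308 negative control spots in the green channel was 46.5 and 50.3 on WT 1 and WT 3, and between 29.5 and 31.0 on the other 4 arrays. No marker of kidney cell types, of leukocytes or of red cells in the lists drawn up for this work, and no gene of the m6A machinery, was among the 45 named probes. The tissue label, the presence of blood and the loss of Mettl3 were therefore not checked here.

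The probe of Prdx2 gave a far brighter supernatant than IP signal on every array. Its processed IP signal, the linear intensity after Agilent's background subtraction and dye normalisation, measured 5554, 11274 and 6532 in WT kidneys 1, 2 and 3, while cKO kidneys 1, 2 and 3 gave 6702, 7824 and 8097. The supernatant signal of the WT kidneys was 25042, 39886 and 36339.7 and that of the cKO kidneys 32273, 27811 and 30169. The IP signal thus made up 18.2%, 22.0% and 15.2% of the summed channels in the WT kidneys, against 17.2%, 22.0% and 21.2% in the cKO kidneys, and the genotypes overlapped. The means were 18.5% ± 3.41 and 20.1% ± 2.55 (SD, n = 3).

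The probe of Gsta4 had a more even split between the fractions. Its IP signal read 1058, 1326 and 1229 in WT kidneys, compared with 903, 858 and 1874 in cKO kidneys. WT supernatants read 1527, 1548 and 1719, cKO supernatants 1523, 1217 and 2425. The highest value of both channels came from cKO 3 and the lowest from cKO 2, so the cKO kidneys spread around the WT kidneys on both sides. The IP signal of Gsta4 was 40.9%, 46.1% and 41.7% of the summed channels for WT, against 37.2%, 41.4% and 43.6% for cKO, with means of 42.9% ± 2.81 and 40.7% ± 3.23 (SD, n = 3). Because red always stood for IP, these shares carry any dye effect of the probe and are not fractions of methylated molecules.

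**Figure D1:**
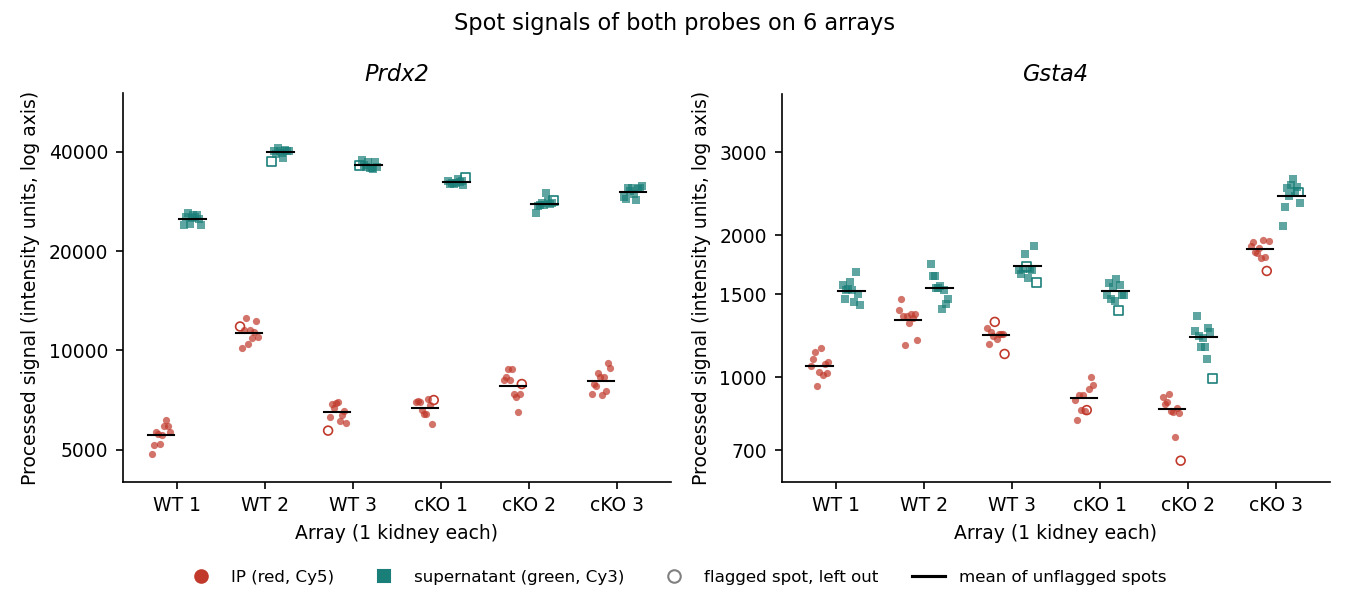
Processed signals (vertical log axis, intensity units) of the 10 spots of each probe on the 6 arrays, with red circles for IP, green squares for supernatant, open symbols for spots flagged as outliers and black lines for the mean of the unflagged spots. The Prdx2 supernatant spots average between 25042 and 39886 per array and its IP spots between 5554 and 11274, whereas for Gsta4 the fractions lie close together and cKO 3 is highest in both.

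The spots showed how precisely 1 array measured each gene. Of 60 Prdx2 spots on the 6 arrays 4 were flagged as non-uniform or as population outliers and left out, and of 60 Gsta4 spots 5. Over the unflagged spots of an array, the coefficient of variation was 5.43% to 9.77% in the IP channel and 1.30% to 3.63% in the supernatant for Prdx2, and 2.35% to 6.67% and 3.67% to 6.83% for Gsta4. The SD of the log2 ratio between spots lay between 0.08 and 0.17 for Prdx2 and between 0.08 and 0.14 for Gsta4. The SD between arrays of a genotype was larger, 0.42 in WT and 0.25 in cKO for Prdx2 and 0.25 and 0.21 for Gsta4. The spread between arrays, of which there were 3 per genotype, therefore limits the comparisons more than the spots do.

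An adjusted p here is a Benjamini-Hochberg adjusted p of limma's test over all probes kept, called when under 0.05. The first comparison asked whether the transcripts were recovered with the m6A antibody more or less than the median probe. The log2 ratio of IP to supernatant, centred on the median of each array, of Prdx2 came to -2.22, -1.78 and -2.63 in the WT kidneys, against -2.26, -1.78 and -1.86 in the cKO kidneys. On the linear scale the Prdx2 ratio lay 3.44-fold to 6.19-fold under that of the median probe. In limma's moderated test the WT mean of -2.21 (95% interval -2.66 to -1.76) had an adjusted p of 2.35e-05 and the cKO mean of -1.96 (-2.41 to -1.52) one of 7.05e-05. Prdx2 held the lowest ratio of the 34 named genes with a measured ratio on every array, by 0.43 to 1.29 log2 units, and stood between the 3.09 and 10.3 percentile of all 28363 probes with a ratio. The next gene up by mean ratio was Actb, the cytoplasmic actin gene, with -1.44 ± 0.23 in WT and -1.41 ± 0.15 in cKO. Since IP was red on every array, ratios, their tests against the median probe and ranks carry any dye effect of a probe. That effect was not tested.

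Gsta4 lay only a little below the median probe. Its centred log2 ratio came to -0.58, -0.18 and -0.64 for WT, against -0.74, -0.46 and -0.33 for cKO. In these processed signals it was negative on each of the 6 arrays. The mean was -0.46 in WT (95% interval -0.85 to -0.08, adjusted p = 0.035 in limma's test) and -0.51 in cKO (-0.89 to -0.13, adjusted p = 0.0278). It ranked 4 or 5 from the bottom of the 34 named genes on each array, between the 23.0 and 44.2 percentile of all probes. Below-median ratios past the threshold were common: 33.8% of all probes had one in WT and 29.8% in cKO, so that both members passing says little about them, and the size of the Prdx2 value is what sets it apart from most probes.

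The call for Gsta4 depended on how the arrays were processed. With normexp background correction and an offset of 50 added to each signal, its WT ratio was -0.09 (limma's adjusted p = 0.524). Under that correction WT 3 was at 0.12 and the other arrays were below 0. Relative to the spike-in probes the Gsta4 ratio was -0.17 in WT and -0.38 in cKO (limma's adjusted p = 0.455 and 0.117). When IP and supernatant were treated as unpaired channels, limma's adjusted p was 0.222 for WT and 0.202 for cKO. Leaving out WT 1, WT 3, cKO 2 or cKO 3 ended the WT call (adjusted p = 0.122, 0.139, 0.0596 and 0.0561), and leaving out cKO 1, 2 or 3 ended the cKO call (0.142, 0.0930 and 0.0638). The Gsta4 spots were dim in green: their median signal was 2.69 to 8.96 times that of the negative control spots, lowest on WT 3 and next lowest on WT 1, against 37.0 to 135 times for Prdx2. The part of this low signal in the result was not tested beyond the alternative corrections.

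**Figure D2:**
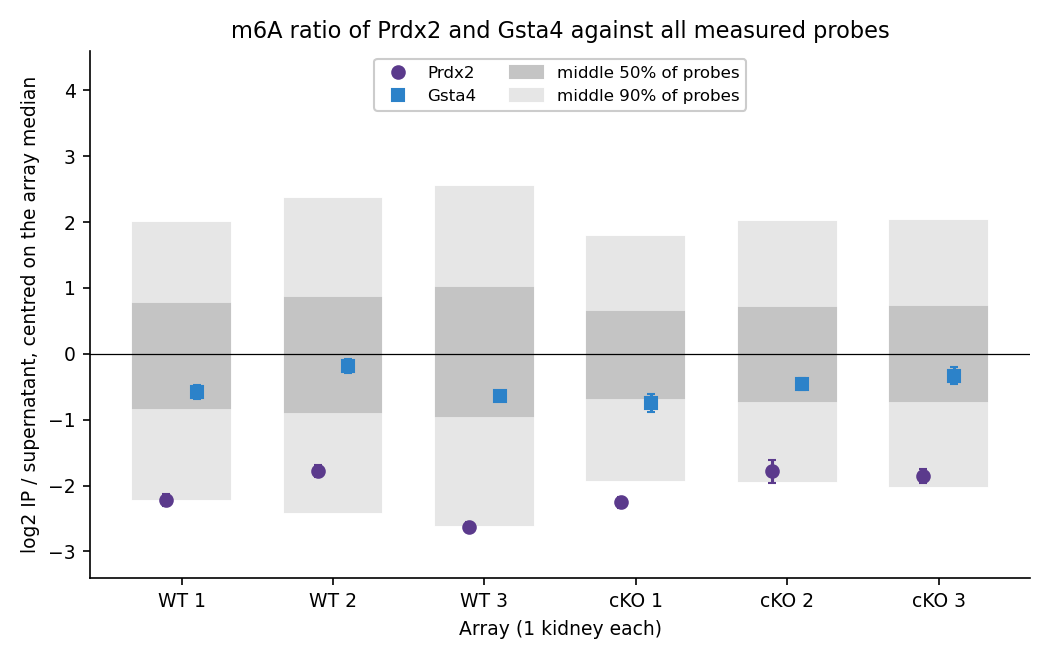
Log2 ratio of IP to supernatant, centred on the array median (vertical axis), of Prdx2 (circles) and Gsta4 (squares) on each array, with bars for the SD between spots and grey boxes for the middle 50% and 90% of all probes with a ratio. Prdx2 lies in the lowest stretch of the 90% box or under it, from -2.63 to -1.78, and Gsta4 lies below 0 on each, from -0.74 to -0.18.

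The second comparison asked whether these ratios differed between the kidneys labelled WT and cKO. For Prdx2 the cKO mean was higher by 0.24 ± 0.28 (SE) log2 units, with a 95% interval from -0.39 to 0.88 and an adjusted p of 0.677. The genotypes overlapped, with WT 2 and cKO 2 both at -1.78. For Gsta4 the difference was -0.05 ± 0.24, with an interval from -0.58 to 0.49 and limma's adjusted p at 0.938. Neither gene passed, at an adjusted or an unadjusted p under 0.05, where 0.00353% and 16.8% of all probes did. Relative to the median probe, the intervals still allow a change of up to 1.84-fold for Prdx2 and 1.50-fold for Gsta4. The test therefore does not show that the ratios were equal. Dye normalisation and median centring remove a shift in ratio shared by all probes. A genotype difference of that kind cannot be seen here.

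Within the scan that holds both genotypes, where WT 2 is the lone WT array and its spread is taken from the cKO arrays, the Prdx2 difference had the other sign, -0.18 ± 0.33, and that of Gsta4 was -0.33 ± 0.31. WT 2 had the highest WT ratio for both genes. Of the pair that shares its own scan, WT 1 had a processed Prdx2 ratio within the cKO range (-2.22) and WT 3 one below it (-2.63). Leaving out WT 3 reduced the Prdx2 difference over both scans to 0.03, while leaving out WT 1 left it at 0.24. The place of WT 2 depended on the signals used. For Prdx2 it lay below the cKO mean with background-subtracted signals (-2.12 against -1.98) and with normexp and its offset (-2.02 against -1.70).

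The signal of each fraction was compared after scaling by its 75th percentile over all probes of the array, so that a probe at that percentile has a log2 signal of 0. On this log2 scale the Prdx2 level in the IP was 3.81, 4.10 and 3.79 for the WT kidneys, against 3.71, 3.91 and 3.87 for the cKO kidneys, and the genotypes overlapped. In the supernatant the WT levels were 5.99, 5.91 and 6.36, the cKO levels 5.97, 5.74 and 5.76, and cKO 1 lay among the WT values. The cKO mean differed by -0.07 ± 0.21 (SE) in the IP and -0.27 ± 0.21 in the supernatant, and limma's adjusted p was 0.920 and 0.753. Of the Prdx2 values, WT 3 had the highest supernatant signal and the lowest ratio, and WT 2 the highest IP signal and the highest WT ratio.

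The Gsta4 level in the IP was 1.42, 1.01 and 1.38 for the WT kidneys, against 0.81, 0.72 and 1.76 for the cKO kidneys. In the supernatant the WT levels were 1.96, 1.23 and 1.96, the cKO levels 1.56, 1.22 and 2.12. The lowest and the highest IP value were both from cKO kidneys, and the SD in the IP was 0.58 in cKO and 0.23 in WT. The differences were -0.17 ± 0.31 (SE) and -0.08 ± 0.31, and limma's adjusted p was 0.865 and 0.973. In both fractions neither gene was called, where 0.104% of probes were in the IP and 0.225% in the supernatant, nor did either reach an unadjusted p under 0.05, which 11.8% and 10.3% of probes did. In bulk kidney RNA, fewer cells of a type and less RNA per cell cannot be told apart.

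**Figure D3:**
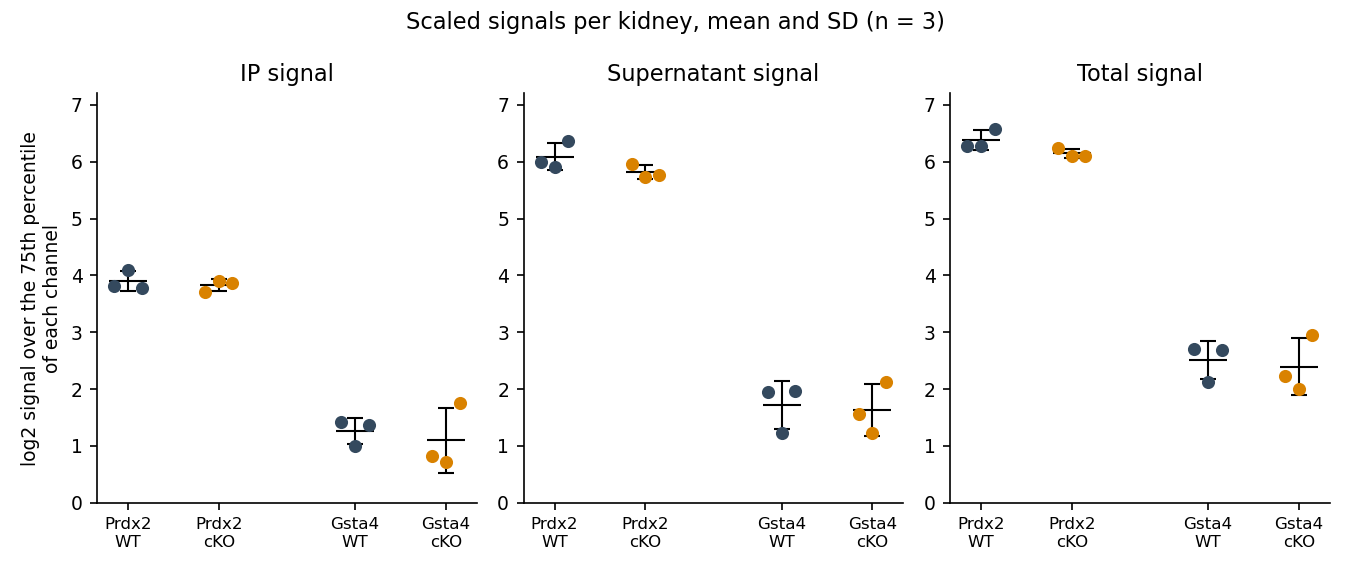
Log2 signal over the 75th percentile of the channel (vertical axis) for IP, supernatant and their sum, per kidney (points), with the mean and SD of the 3 kidneys of each genotype. The Prdx2 genotypes overlap in the fractions and separate narrowly in the total signal, where WT ranges from 6.27 to 6.58 and cKO from 6.10 to 6.24, and Gsta4 overlaps throughout. Heights of different genes are not comparable, since each probe has its own brightness.

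The total signal, log2 of the sum of both scaled channels, stood in for transcript abundance. Each channel was scaled on its own, so the sum weights both fractions alike, whatever amount of RNA each held. It therefore also depends on how a transcript split between them. For Prdx2 the WT kidneys gave 6.28, 6.27 and 6.58, the cKO kidneys 6.24, 6.10 and 6.11. All 3 cKO values lay below all 3 WT values, but the gap between WT 2 and cKO 1 was small. The same pattern, cKO below WT without overlap, was found in 9.28% of all 36070 probes with a total signal. The difference was -0.23 ± 0.18 (SE), with a 95% interval from -0.63 to 0.17 and an adjusted p of 0.780, and the two-sided exact permutation p over arrays was 0.1, the smallest that 3 against 3 arrays allow. Of 20 alternatives 19 kept its sign and 0 were called. The filters, the variance model and the replicate block cannot move this value, and the scan block repeats that of the shared scan. The Prdx2 difference was -0.13 within the shared scan, -0.13 without WT 3 and 0.083 with normexp and its offset. It was -0.43 when the channels were scaled by their medians (limma's adjusted p = 0.467). Under that scaling the median of all probes was itself at -0.13.

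For Gsta4 the WT totals were 2.71, 2.12 and 2.70, the cKO totals 2.24, 1.99 and 2.95, and the genotypes overlapped. The difference was -0.12 ± 0.29, with an interval from -0.77 to 0.54 and limma's adjusted p at 0.963. Within the shared scan it was 0.27. The 0.186% of all probes that passed in total signal included neither gene, and neither did the 9.69% with an unadjusted p under 0.05.

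**Figure D4:**
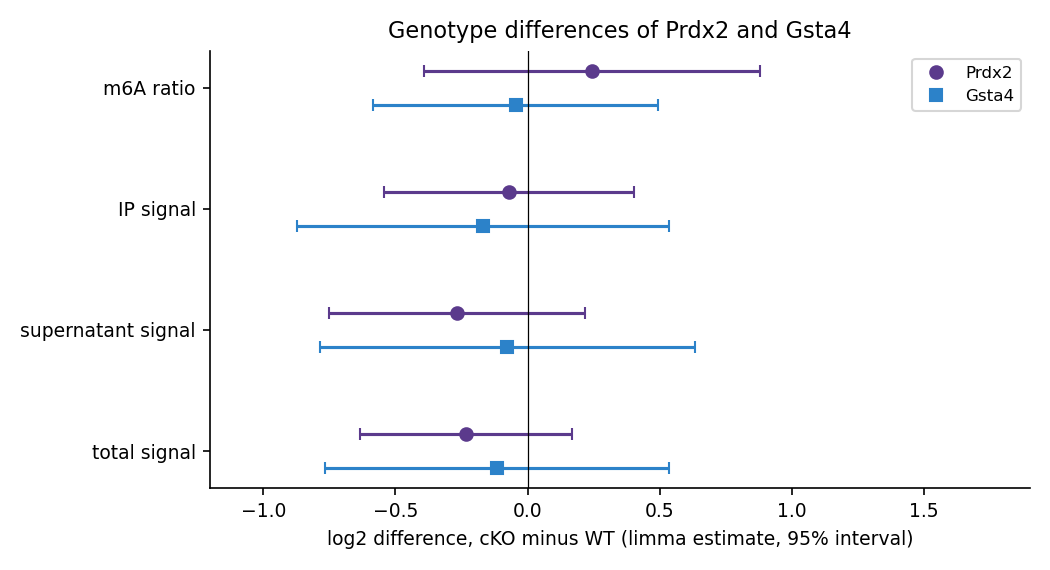
Difference between cKO and WT (horizontal axis, log2) in the m6A ratio, the 2 fractions and the total signal, for Prdx2 (circles) and Gsta4 (squares), with limma's 95% interval. Each of the 8 intervals includes 0.

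The 2 genes were also set against each other within each array, which removes whatever shifts both probes alike. The log2 ratio of Prdx2 minus that of Gsta4 came to -1.64, -1.60 and -1.99 for WT, against -1.51, -1.33 and -1.53 for cKO. The distance was smaller on each cKO array than on any WT array, and 30.8% of the 561 pairs among the 34 named genes separated the genotypes in one direction or the other. The means were -1.74 ± 0.21 and -1.46 ± 0.11 (SD, n = 3), a difference of 0.29 with p = 0.1 in the two-sided exact permutation test, the smallest possible of 20 splits. Under 5 alternatives of signal and spot handling it was 0.21 to 0.39, and the exact p was 0.3 both with normexp and its offset (0.21) and with normexp, loess and Aquantile together (0.21). Without WT 3 it was 0.17, so that array moved it by more than any other. In total, IP and supernatant signal the same contrast gave -0.12, 0.10 and -0.19 with exact p of 0.8, 0.9 and 0.7. The 4 contrasts share the same arrays, and after Benjamini-Hochberg adjustment over them the smallest p was 0.4.

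The named genes whose ratio varied most like that of Prdx2 over the 6 arrays were the gasdermin gene Gsdmd (Pearson r = 0.91), the histocompatibility gene H2-M2 (r = 0.87) and Gsta4 itself (r = 0.78), out of 33 candidates. For Gsta4 they were Cpt1a, which brings fatty acids into mitochondria (r = 0.96), Gsdmd (r = 0.88) and the transcription factor subunit gene Taf1a (r = 0.88). In total signal the closest to Prdx2 were the glycolysis gene Gpi1 (r = 0.81), Hyal3 (r = 0.80) and Trp53rka (r = 0.79), and to Gsta4 the mitochondrial gene Dnajc11 (r = 0.95), the nuclear receptor gene Ppara (r = 0.88) and Bambi (r = 0.79), out of 37. Between Prdx2 and Gsta4 the total signals correlated at 0.24. These correlations over 6 arrays describe this set of arrays, whose values share centring, scaling and scan.

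Among the 45 named probes, no other gene of the pathways could be set beside Prdx2 and Gsta4. The remaining probes of the array were not searched for the listed genes. Of 24 listed genes of peroxide removal 1 had a named probe, Prdx2, and of 30 genes of glutathione metabolism 1, Gsta4. None of 16 genes of aldehyde metabolism, 12 of the Nrf2 response and 13 of oxalate handling and tubular injury had one. RefSeq lists 2 mRNAs for Prdx2, of which the probe names 1, and 2 Prdx2 pseudogenes, and it lists 4 protein-coding Gsta genes. The probe sequences were not analysed here, so signal from such relatives cannot be told apart from that of the named transcripts.

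**Figure D5:**
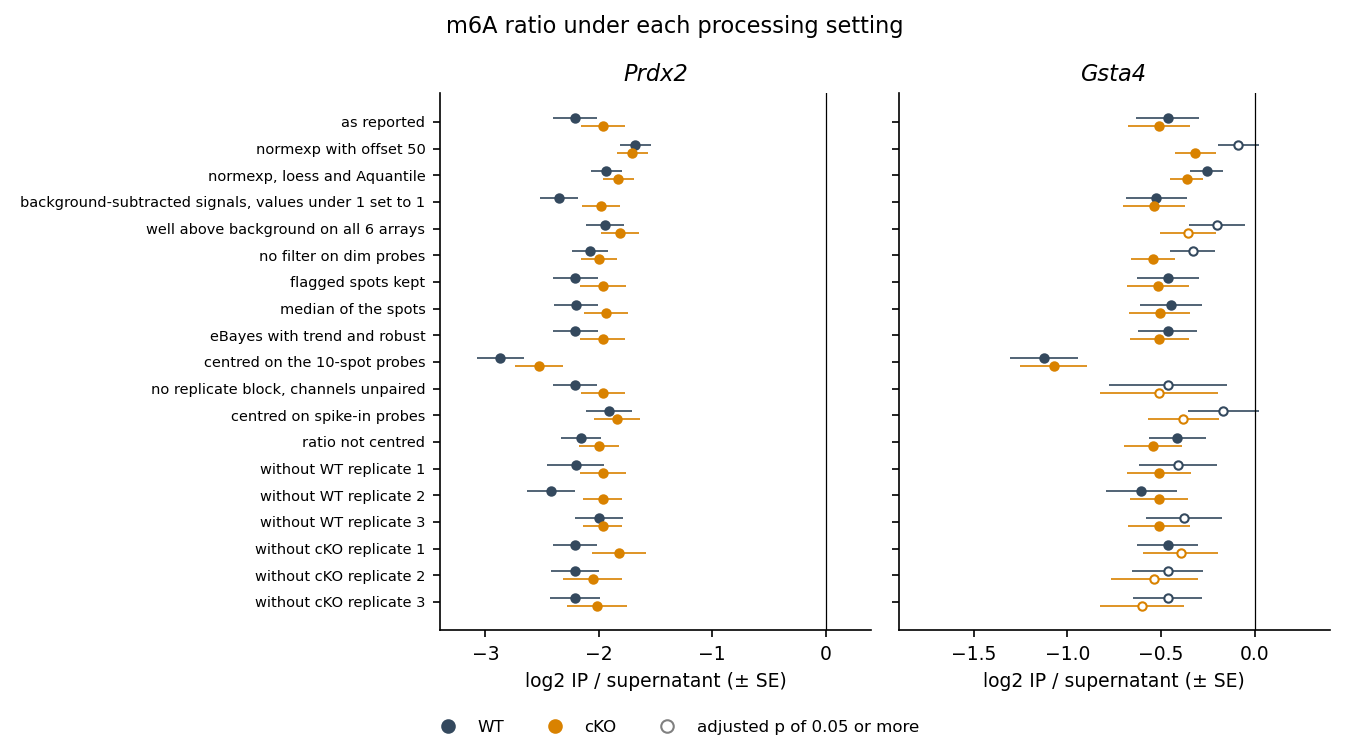
Log2 ratio of IP to supernatant (horizontal axis, ± SE) of Prdx2 and Gsta4 in WT and cKO under each processing setting (rows), with open symbols where the adjusted p was 0.05 or more. The Prdx2 ratio is below 0 and called under each setting, while several Gsta4 symbols are open.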

How the data were processed

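The deposited files hold linear spot intensity values of 2-colour arrays, which the authors extracted with Agilent Feature Extraction 11.0.1.1, per the submitters' processing notes and the file headers. The processed signals are background-subtracted and dye-normalised, per the file headers. The rest was computed in R 4.3.3 with limma 3.58.1. Non-uniform spots and population outliers, as flagged by the software, were dropped and the remaining spots averaged on the log2 scale. Processed ratios were centred on the array median without loess. A probe was kept where a share of at least 0.5 of its spots was well above background on 3 or more of the 6 arrays. The ratio needed this of both channels, the total of one of them and a fraction of its own. limma's lmFit and eBayes ran over all kept probes of 6 arrays, two-sided, with Benjamini-Hochberg adjustment and a threshold of 0.05. The script was tested on simulated data. Differences between both genes were tested by exact permutation.

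IP and supernatant of an animal were paired by the array. Their deviations from the group means correlated at 0.20 to 0.49 over probes. The headers name no slide, so the scan time stood in for it. Arrays are labelled biological replicates. The members, lists and tests were chosen with earlier results of these data known. The naming rule took both members, every listed pathway gene with a named probe and, for each member, the 3 named 10-spot probes with the highest correlation in ratio and in total signal. Alternatives covered background correction, normalisation, centring, scaling, filters, spot handling, variance model, replicate and scan blocks and leaving out each array. Spike-in centring and no centring were added after the data were seen.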

Additional observations from a re-analysis of the deposited data

How the results depend on the processing

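Normexp below always includes an offset of 50, and the loess setting combines that correction with loess within arrays and Aquantile between them, so neither isolates 1 choice. Of the 18 alternatives per genotype, the trended variance, unpaired channels and leaving out an array of the other genotype change only the spread, not the ratio. The Prdx2 ratio was below 0 and past the threshold under each of these 18 alternatives per genotype, between -2.87 and -1.68 in WT and between -2.53 and -1.70 in cKO. The Gsta4 ratio was below 0 under each as well but lost its WT call with normexp (-0.088), a filter on all 6 arrays (-0.20), no filter (-0.33), unpaired channels (-0.46) and spike-in centring (-0.17), and its cKO call with the filter on all 6 arrays (-0.36), unpaired channels (-0.51) and spike-in centring (-0.38). Without 1 array, the Prdx2 ratio was -2.42 to -2.00 in WT and -2.06 to -1.82 in cKO, and that of Gsta4 -0.61 to -0.38 and -0.60 to -0.39. Centring on the 10-spot probes moved the Gsta4 ratio to -1.12 and -1.07. It also turned the split of all called probes from 9596 below and 9408 above the median to 15177 and 4777 in WT, and from 8438 and 8077 to 14353 and 3938 in cKO, while spike-in centring gave 7116 and 11661, and 6851 and 8694.

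Of 156 alternative values of the members' genotype differences 0 were called, 131 kept their sign and 25 reversed it. Limma's smallest adjusted p among them was 0.425. These counts do not measure how stable the signs are, since some settings cannot move a difference. Such settings were the trended variance and the replicate block throughout, and the filter settings for total, IP and supernatant signal. Values with the scan as a block also repeat those within the shared scan. With normexp the reversed differences were -0.023 for the Prdx2 ratio, 0.083 and 0.058 for the Prdx2 and Gsta4 total, 0.088 for the Prdx2 IP signal, 0.084 and 0.15 for the Prdx2 and Gsta4 supernatant and 0.025 for the total of Prdx2 minus Gsta4. Background-subtracted signals gave 0.023 for the Prdx2 IP signal, the loess setting 0.030 for the Gsta4 supernatant and -0.0091 for the IP signal of Prdx2 minus Gsta4, and centring on the 10-spot probes 0.052 for the Gsta4 ratio. With the scan as a block, and equally within the shared scan, the reversed values were -0.18 for the Prdx2 ratio and 0.27, 0.091 and 0.41 for the Gsta4 total, IP and supernatant signal. Scaling by channel medians moved the median difference of all probes to -0.13 in total and -0.24 in supernatant signal, and relative to it Prdx2 was at -0.31 and -0.27. The cause of these changes was not tested.

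Leaving out 1 array gave differences of 0.03 to 0.46 (Prdx2) and -0.13 to 0.10 (Gsta4) in ratio, -0.28 to -0.13 and -0.40 to 0.085 in total, -0.13 to 0.029 and -0.50 to 0.021 in IP and -0.35 to -0.13 and -0.32 to 0.13 in supernatant signal. For Prdx2 minus Gsta4 the ranges were 0.17 to 0.36 in ratio, -0.29 to 0.18 in total, -0.13 to 0.41 in IP and -0.36 to 0.085 in supernatant signal. The Gsta4 ratio difference reversed without WT 2 (0.10) or cKO 1 (0.07), its total without cKO 2 (0.085), its IP signal without cKO 2 (0.021), its supernatant without WT 1 (0.05), WT 3 (0.05) or cKO 2 (0.13), and the Prdx2 IP signal without WT 2 (0.029). For Prdx2 minus Gsta4 the total reversed without WT 2 (0.03) or cKO 3 (0.18), the IP signal without WT 1 (-0.02), WT 3 (-0.01) or cKO 2 (-0.13) and the supernatant without cKO 3 (0.085).

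Over all probes, 1 differed in ratio between genotypes, against 116 with the loess setting, 184 with the filter on all 6 arrays, 3 with background-subtracted signals, 6 when centred on the 10-spot probes and 0 with normexp, no filter, a trended robust variance, the scan block, the shared scan or spike-in centring. The 67 in total signal became 20 with normexp, 22 with the loess setting, 158 with the trended variance, 102 with quantile normalisation, 4 with the scan block and 3 within the shared scan. The 35 in the IP became 18, 5, 70, 58, 0 and 5 under the same settings, 17 with background-subtracted signals and 4 without a filter. The 70 in the supernatant became 24 with normexp, 28 with the loess setting, 42 with background-subtracted signals, 16 without a filter, 156 with the trended variance, 1 with the scan block and 160 within the shared scan. Without 1 array these counts ranged over 0 to 2, 4 to 42, 0 to 11 and 0 to 100, and over 17064 to 18724 and 12181 to 17157 for ratios called in WT and cKO.

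Same-numbered WT and cKO arrays are not stated to be paired, and their ratio deviations correlated at 0.33, 0.27 and 0.08, each array's highest correlation being with its own number. In total signal the same pairs correlated at -0.094, 0.24 and -0.030, and only the arrays numbered 2 correlated best with their own number. With the number as a replicate block the genotype differences of the members had the same values (0.24 for the Prdx2 ratio) and none was called, and the counts of called probes were 0 in ratio, 28 in total, 11 in IP and 0 in supernatant signal. Arrays have no read depth. The limits are 3 arrays per genotype, 1 WT array in the shared scan, and for Gsta4 a supernatant signal of 2.69 to 8.96 times that of the negative controls.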

Other observations

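The order of the WT arrays for Prdx2 differed between corrections. In the processed signals the ratio was highest on WT 2 (-1.78) and lowest on WT 3 (-2.63), and with normexp and an offset of 50 it was lowest on WT 2 (-2.02) and highest on WT 3 (-1.47). Before dye normalisation and scaling, the background-subtracted IP intensity of Prdx2 measured 805, 853 and 840 in WT kidneys and 904, 927 and 955 in cKO kidneys. Each cKO value lay above each WT value, as for 15.3% of 33518 probes in this signal, whereas scaled by the 75th percentile the same signals differed by 0.02 log2 units (limma's adjusted p = 0.974). The corresponding supernatant intensities measured 2324, 4001 and 1809 for WT, against 4093, 2763 and 3054 for cKO, and the 2 lowest were those of WT 1 and WT 3.

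The 10 spots of a probe lay across the array, from row 2 to row 348 for Prdx2 and from row 16 to row 383 for Gsta4. Their log2 ratios showed no shared order between arrays: over 15 pairs of arrays the median correlation across spots was -0.10 for Prdx2 and -0.06 for Gsta4, as a description of these spots.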
